A study of Mus musculus with 12 samples.

Results

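Inhibitory receptors and exhaustion genes were examined in natural killer (NK) and CD8+ T cells from mouse tumours. The set held 9 genes, Pdcd1, Ctla4, Lag3, Havcr2, Tigit, Cd96, Cd160, Entpd1 and Tox, out of 54232 gene identifiers in the count table. They were chosen by name as inhibitory receptors or exhaustion genes, with earlier results of these data known. Each Ensembl identifier was matched to its symbol. All 9 passed the filter on low counts, which left 13279 genes for testing.

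On GRCm38 all 9 are protein-coding, and counts were taken over their exons. The best known inhibitory receptors are Pdcd1 (ENSMUSG00000026285) at chr1:94038305-94052553, Ctla4 (ENSMUSG00000026011) at chr1:60887000-60915832, Lag3 (ENSMUSG00000030124) at chr6:124904361-124911705 and Havcr2 (ENSMUSG00000020399) at chr11:46454935-46481255. The receptors for PVR and nectins are Tigit (ENSMUSG00000071552) at chr16:43648867-43664146 and Cd96 (ENSMUSG00000022657) at chr16:46035657-46120251. The others are Cd160 (ENSMUSG00000038304) at chr3:96798763-96829351, Entpd1 (ENSMUSG00000048120) at chr19:40612366-40741602 and Tox (ENSMUSG00000041272) at chr4:6686353-6991557. Exons of Tox overlap those of Gm11802, and no other member shares exon positions with another gene.

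The 12 libraries formed 6 groups of 2, with NK or CD8+ T cells (CD8 below) from 3 genotypes. All mice were on the C57BL/6N background, matched for sex and age. WT mice carried intact Tyk2, KO mice lacked the kinase TYK2 (Tyk2-/-), and KE mice carried Tyk2 K923E, a form of TYK2 without kinase activity. Every animal had received subcutaneous MC38 colon adenocarcinoma cells in both flanks, and tumours were digested and enriched for CD45+ cells. Each library was made with the low-input Smart-seq2 method from 300 sorted cells, either CD45+ CD3ε- NK1.1+ or CD45+ CD3ε+ CD8a+. Both mutations were present in the whole animal, so tumour and immune surroundings of the sorted cells also differed in genotype, apart from the injected line itself. The labels did not say whether the 2 libraries of a group came from separate animals, so p-values measure only the spread between these libraries.

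T cells and NK cells carry receptors that dampen activation when they meet ligands on tumour or antigen-presenting cells, and antibodies that block several of these receptors are used against cancer. T cells exposed to antigen for a long time enter a state called exhaustion, in which many such receptors are expressed together under the control of factors that include Tox. TYK2 transmits signals from type I interferon and interleukin-12 receptors. These cytokines act on both cell types in tumours.

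Libraries held 10378761 to 14732882 counts, and levels are given as counts per 1000000 counts (CPM) after scaling for library composition. NK markers were higher in NK libraries and CD8+ T cell markers in CD8 libraries. The summed level of 8 NK markers was 6964 to 11323 CPM in NK libraries and 1146 to 1787 CPM in CD8 libraries, and that of 8 CD8+ T cell markers was 66.1 to 341 and 11147 to 15632 CPM. Tyk2 itself was at 60.8 and 68.9 CPM (WT), 56.3 and 105 CPM (KO), and 119 and 82.3 CPM (KE) among NK libraries, and at 48.3 and 86.1 CPM (WT), 61.9 and 73.8 CPM (KO), and 58.9 and 46.7 CPM (KE) among CD8 libraries. The KO libraries were therefore not lower in Tyk2 counts, and the gene-level count does not check the KO or KE labels, so each genotype below means the library labelled as such. Libraries NK WT 1, NK WT 2 and NK KO 1 also held macrophage transcripts, and in both NK WT libraries their sum was above that of the NK markers. The 12 macrophage and monocyte markers summed to 9436, 8739 and 5371 CPM in these libraries and to 24.5 to 264 CPM in the other NK libraries. Most of the NK KO 1 sum was Lyz2, with 43171 reads against 29919 and 27222 in NK WT 1 and 2. The other 11 markers were lower in NK KO 1 than in both NK WT libraries. Csf1r had 2 reads in NK KO 1 against 3491 and 3918, and C1qb 12152 against 29021 and 29762. The 8 dendritic cell markers summed to 2111, 4866 and 3476 CPM in NK WT 1, NK WT 2 and NK KO 1, against 70.6 to 286 CPM. In these 3 libraries the sum was nearly all H2-Ab1 and Cd74, MHC class II genes that macrophages also express. Flt3, Clec9a, Cd209a and Siglech were at 0 in all NK libraries, and Xcr1 had at most 20 reads, in NK KE 2. Zbtb46 had 237 and 342 reads in NK KE 1 and 2 and at most 31 in the other NK libraries.

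**Figure D1:**
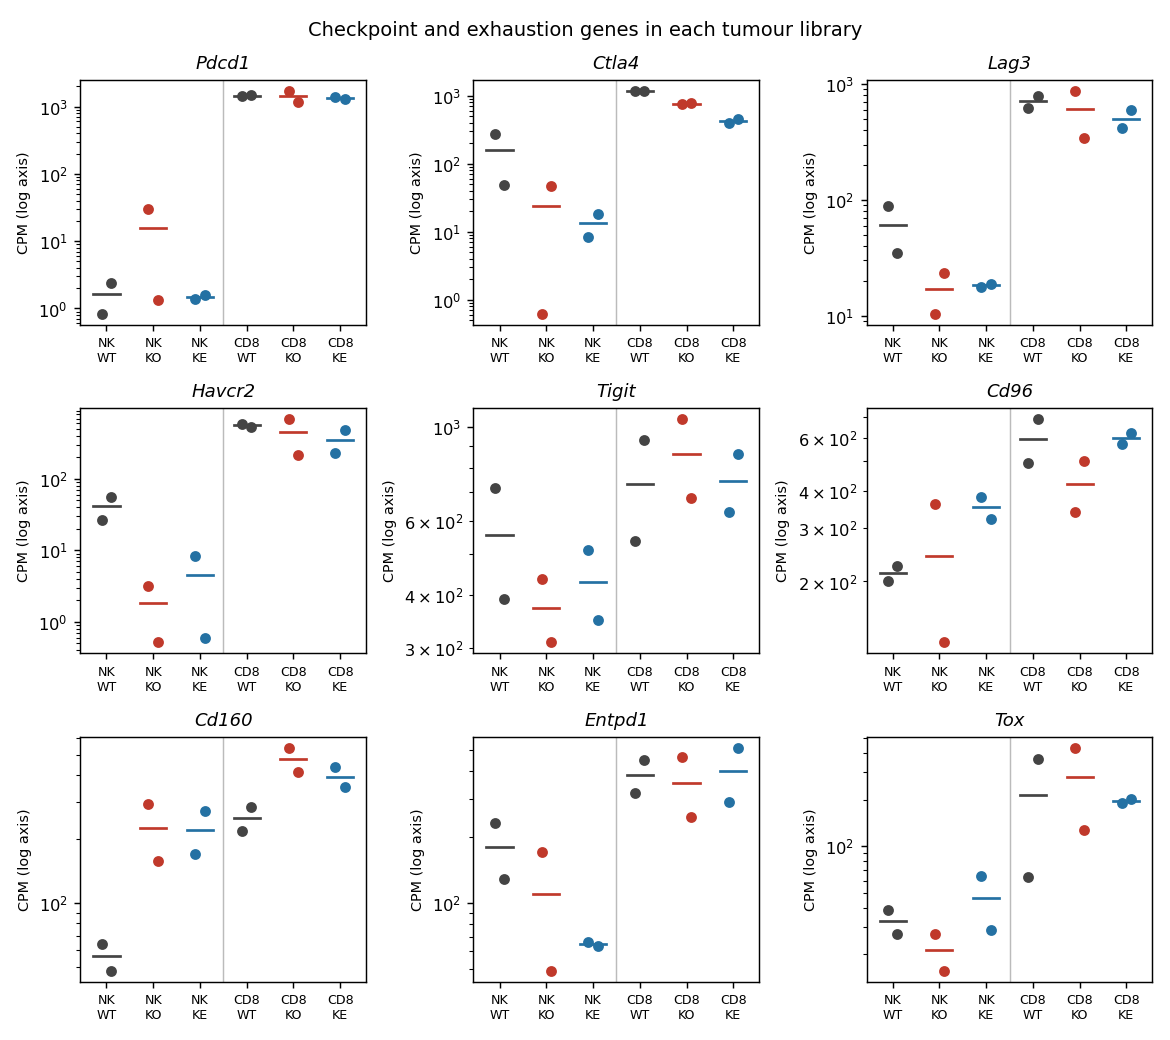
Level of each of the 9 genes in each library, in CPM on a log axis; points are libraries, horizontal lines are group means, and the grey line separates NK from CD8. Pdcd1, Ctla4, Lag3, Havcr2 and Entpd1 were lower in all 6 NK libraries than in any CD8 library, whereas the points of Tigit, Cd96, Cd160 and Tox overlapped between the cell types.

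Tumour NK cells expressed less of most of these genes than tumour CD8+ T cells. Averaged over genotypes, 8 of the 9 genes were called lower in NK cells and none higher (edgeR quasi-likelihood test, Benjamini-Hochberg adjusted p under 0.05 and a log2 fold change of at least 1). Among all tested genes, 4.47% were called in this comparison, 2.5% as lower and 1.97% as higher. The median log2 fold change of the 9 genes was -2.83, against 0.03 for all genes tested. Because the set was chosen with earlier results of these data known, these shares and medians describe it and carry no test. The 5 genes whose NK and CD8 libraries did not overlap were all lower in NK cells, and 2.83% of tested genes showed that arrangement. In bulk libraries such as these, fewer cells expressing a gene and less RNA per cell cannot be told apart.

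The 4 receptors of the immunoglobulin family best known from exhausted T cells differed most. Pdcd1 encodes PD-1, the receptor for PD-L1. In NK libraries Pdcd1 was at 0.837 and 2.39 CPM (WT), 29.6 and 1.33 CPM (KO), and 1.38 and 1.57 CPM (KE). In CD8 libraries the same gene reached 1442 and 1467 CPM (WT), 1709.9 and 1157 CPM (KO), and 1389.7 and 1289 CPM (KE). Pdcd1 stayed at 0.837 to 2.39 CPM in 5 of 6 NK libraries, and the exception, NK KO 1, held 379 reads of it. NK against CD8 gave a log2 fold change of -8.71 ± 0.72 (SE, edgeR adjusted p = 6.53e-05), and -9.90 without NK KO 1.

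Ctla4 encodes a receptor that competes with CD28 for CD80 and CD86. Its level was 274 and 48.0 CPM (WT), 0.626 and 47.4 CPM (KO), and 8.47 and 18.3 CPM (KE) in NK cells. CD8+ T cells had 1165 and 1175 CPM (WT), 752 and 777 CPM (KO), and 400.5 and 451 CPM (KE). The NK libraries spread widely, from 0.626 to 274 CPM, but none reached the lowest CD8 library. The log2 fold change was -4.28 ± 0.79 (edgeR adjusted p = 0.0102), and leaving out either NK KE library ended the call (adjusted p = 0.0671 without replicate 1 and 0.0571 without replicate 2). The value moved to -6.04 without NK KO 2 and to -4.87 without NK WT 1.

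Lag3, a CD4-like receptor that binds MHC class II, was at 87.7 and 34.8 CPM (WT), 10.4 and 23.3 CPM (KO), and 17.8 and 18.9 CPM (KE) in NK libraries. The CD8 values were 621 and 795 CPM (WT), 875 and 345 CPM (KO), and 415 and 594 CPM (KE). Every CD8 library stood above every NK library, with a log2 fold change of -4.50 ± 0.35 (edgeR adjusted p = 4.88e-05). Havcr2 encodes TIM-3, which is also expressed by macrophages and dendritic cells. NK libraries held 26.4 and 56.2 CPM (WT), 3.13 and 0.517 CPM (KO), and 8.29 and 0.599 CPM (KE). CD8 libraries held 586 and 537 CPM (WT), 682 and 215 CPM (KO), and 229 and 477 CPM (KE). The groups did not overlap, and the log2 fold change was -6.01 ± 0.70 (edgeR adjusted p = 6.71e-04). It was -6.96 without NK KE 1 and -6.61 without NK KO 1.

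The receptors for PVR and nectins, which NK cells are known to express, were closer between the cell types. Tigit, an inhibitory member that competes with the activating receptor CD226, was at 716 and 391 CPM (WT), 436 and 309 CPM (KO), and 511 and 349.7 CPM (KE) in NK libraries. In CD8+ T cells Tigit was at 536 and 928 CPM (WT), 1042 and 679 CPM (KO), and 628 and 864 CPM (KE). The ranges overlapped, and Tigit was the 1 gene of the set that missed the threshold (log2 fold change -0.80 ± 0.22, edgeR adjusted p = 0.0683). Cd96, its relative, was at 201 and 224 CPM (WT), 361 and 126 CPM (KO), and 382 and 322 CPM (KE) in NK cells. The CD8 libraries gave 493 and 689 CPM (WT), 341 and 502 CPM (KO), and 570.1 and 623 CPM (KE). The log2 fold change was -1.01 ± 0.24 (edgeR adjusted p = 0.0359), at the edge of both thresholds, and 11 of the 12 fits that left out 1 library lost the call, all but the fit without NK KO 1.

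Cd160 encodes a receptor for HVEM that NK cells and activated CD8+ T cells carry. NK libraries held 63.8 and 47.9 CPM (WT), 294 and 157 CPM (KO), and 169 and 270.2 CPM (KE). CD8 libraries held 219 and 282 CPM (WT), 539 and 413 CPM (KO), and 436 and 353 CPM (KE). The NK KO and KE values overlapped those of CD8 WT, while NK WT was lowest of all, and the overall log2 fold change was -1.36 ± 0.21 (edgeR adjusted p = 0.00367).

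Entpd1 encodes CD39, which breaks down extracellular ATP as a step towards adenosine. It was at 232 and 128 CPM (WT), 170.2 and 49.0 CPM (KO), and 66.5 and 63.4 CPM (KE) in NK libraries. CD8 levels were 319 and 451 CPM (WT), 463 and 246 CPM (KO), and 290.1 and 512 CPM (KE). No NK library reached the CD8 range, and the log2 fold change was -1.80 ± 0.33 (edgeR adjusted p = 0.00972). Tox encodes an HMG-box factor required for the exhausted state of T cells. NK cells had 38.6 and 27.0 CPM (WT), 27.0 and 15.7 CPM (KO), and 64.0 and 28.9 CPM (KE). CD8+ T cells had 63.0 and 366 CPM (WT), 432 and 127 CPM (KO), and 191 and 203 CPM (KE). CD8 WT 1 lay in the NK range, below NK KE 1, and apart from it the CD8 libraries stood above all NK libraries. The log2 fold change was -2.83 ± 0.48 (edgeR adjusted p = 0.00631), and -2.24 without CD8 WT 2. Exons of Tox overlap Gm11802, so reads there may be assigned to either gene or discarded.

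An alternative chosen after seeing the data left out the 3 NK libraries that held macrophage transcripts. It held no NK WT library and 1 NK KO library, so only sizes are given. The call of Tox was then lost (log2 fold change -3.11), and Entpd1 and Havcr2 lay further below CD8, at -2.74 and -8.02. Pdcd1, Lag3, Havcr2, Cd160, Entpd1 and Tox kept their calls in each of the 12 fits that left out 1 library.

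**Figure D2:**
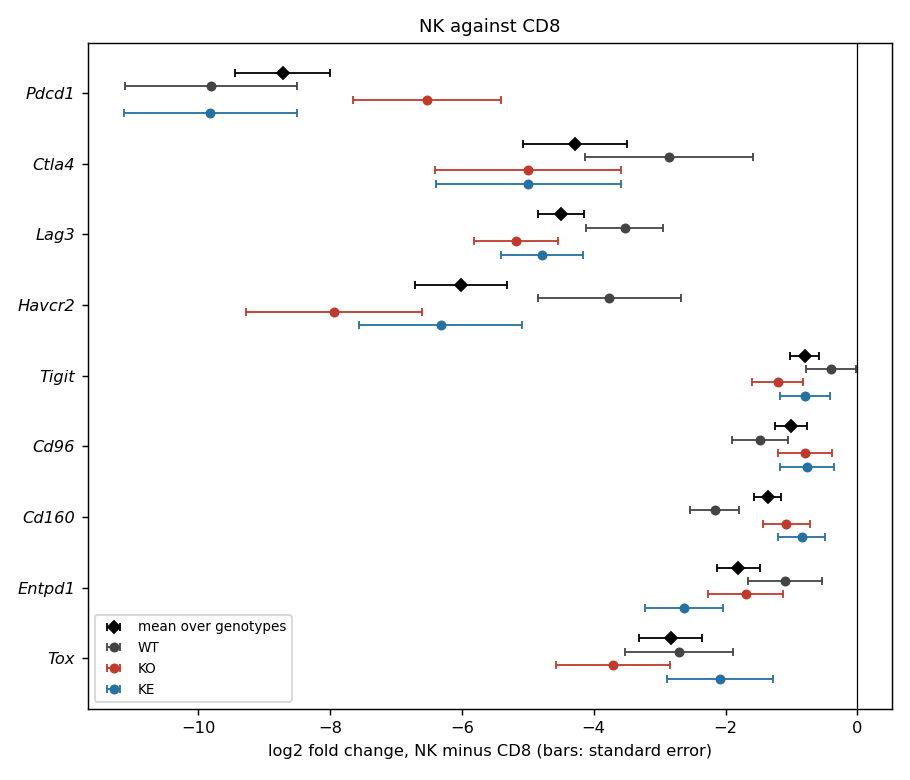
Log2 fold change of NK against CD8 for each gene, averaged over genotypes (black diamonds) and within WT, KO and KE (coloured points); bars are standard errors. All estimates lie below 0, with Pdcd1 at -8.71 and Tigit at -0.80 as the largest and smallest averages.

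Within single genotypes, with 2 libraries a side, fewer genes passed. In WT, 3 of 9 genes were called lower in NK cells (Pdcd1 -9.80, Lag3 -3.53 and Cd160 -2.17 on the log2 scale), where 0.776% of all genes were called. In KO, 3 of 9 were called (Pdcd1 -6.53, Lag3 -5.18 and Havcr2 -7.94) against 0.904%, and in KE 2 of 9 (Pdcd1 -9.81 and Lag3 -4.78) against 0.7%. Pdcd1 and Lag3 were thus called in each genotype, and the remaining genes had the same sign without passing everywhere. When 1 library was left out, 0 or 1 genes remained called in WT, 1 to 3 in KO and 0 to 2 in KE. Sizes moved too. In WT, Lag3 was -4.38 without NK WT 1 and Pdcd1 -10.76 without NK WT 2. In KO, Pdcd1 was -10.06 without NK KO 1 and -5.61 without NK KO 2. Havcr2 in KO was -9.73 without NK KO 1, -7.17 without NK KO 2, -6.88 without CD8 KO 1 and -8.55 without CD8 KO 2. Lag3 in KO was -5.88 without NK KO 2 and -4.36 without CD8 KO 1. In fits of only the libraries compared, 2 were called in WT, 0 in KO and 3 in KE. The share of all genes called in those fits is not given here, so these counts are not set against it. DESeq2 called 6, 7 and 5 of the 9 in WT, KO and KE, where it called 6.2%, 6.1% and 6.02% of all genes, and edgeR with no filter on low counts called 7, 7 and 6, with 2.27%, 2.21% and 2.1% of all genes.

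Per kilobase of exon, the genes of the set can be ranked against each other. In CD8 WT libraries Tigit (797 ± 302 CPM per kb, SD, 2 libraries), Pdcd1 (754 ± 9.24) and Ctla4 (605 ± 3.87) had the highest levels, and Entpd1 (88.6 ± 21.5) and Tox (54.2 ± 54.1) the lowest. In NK WT libraries Tigit led with 602 ± 250.3 CPM per kb, followed by Cd96 with 97.3 ± 7.67 and Ctla4 with 83.2 ± 82.6, while Pdcd1 was last with 0.836 ± 0.569. Tigit made up 32.6% to 43.7% of the summed CPM of the 9 genes in each NK library and 9.85% to 16.1% in each CD8 library. Pdcd1 made up 21.9% to 30.6% in CD8 libraries and at most 2.22% in NK libraries.

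Ordered by group mean, the 3 CD8 groups ranked above the 3 NK groups for every gene of the set. For Pdcd1, Lag3, Havcr2, Entpd1 and Tox, the lowest CD8 group and the highest NK group did not overlap, and the CD8 groups overlapped their neighbours in the order. Ctla4 was the gene with separate neighbours throughout CD8, with WT above KO and KO above KE. For Tigit and Cd96 each group overlapped the next. The Cd160 order was CD8 KO, CD8 KE, CD8 WT, NK KO, NK KE and NK WT, with gaps between CD8 KE and CD8 WT and between NK KE and NK WT.

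Genes outside the set with the most similar course over the 12 libraries were found by the root-mean-square difference of centred log2 CPM. The nearest to Pdcd1 were Cd6 (1.04) and Slamf1 (1.08), 2 T cell surface receptors, and the nearest to Lag3 were Gm22814 (0.57) and Gzmk (0.58). For Ctla4 they were Ncaph (1.08) and Zbtb32 (1.21), for Havcr2 Cd86 (1.38) and Fam20a (1.41), and for Cd160 Ltb (0.46) and Runx2 (0.46). Tigit lay nearest to Prkch (0.25) and Panx1 (0.26), Cd96 to Grap (0.32) and Cd48 (0.34), Entpd1 to Susd3 (0.42) and Capg (0.47) and Tox to Kpna2 (0.71) and Cks2 (0.76). These distances describe the 12 libraries, which share 2 cell types, and carry no test.

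Other genes of the checkpoint system were counted by lists, beside 2.5% of all genes called lower and 1.97% higher in NK cells. Of 13 tested other inhibitory receptors, 3 were lower and 1 higher in NK cells. Cd244a (2B4), a receptor typical of NK cells, was higher (log2 fold change 2.83 ± 0.42), and Cd5, which is also a T cell marker (-9.11 ± 0.54), Vsir (-1.16 ± 0.17) and Cd200r1 (-4.63 ± 1.17) were lower, with edgeR adjusted p of 0.00336, 4.59e-06, 0.00343 and 0.0486. The Cd200r1 call was lost in 11 of the 12 fits that left out 1 library, all but the fit without NK KO 2 (adjusted p up to 0.150). Costimulatory receptors showed 7 of 11 lower and none higher. Among them, Slamf1 (-9.87), Icos (-2.53), Cd28 (-2.25) and Tnfrsf4, which encodes OX40 (-6.70), had the smallest adjusted p. The medians of the 2 lists were -0.55 and -1.19 on the log2 scale, beside 0.03 for all genes.

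Beside the lists that follow, 2.5% of all genes were called lower and 1.97% higher in NK cells. Of 15 other transcription factors linked to exhaustion, 3 were lower in NK cells, namely Irf4 (-9.20 ± 0.92), Rbpj (-1.59 ± 0.23) and Nr4a2 (-1.46 ± 0.29), and 12 were not called. Among 12 progenitor and memory genes, Ccr7 (-4.15 ± 0.75) and Il7r (-1.81 ± 0.45) were lower. Of 10 phosphatases, kinases and adaptors that act next to these receptors, the phosphatase gene Inpp5d (SHIP1) and the adaptor gene Sh2d1b1 (EAT-2) were higher, at 1.25 ± 0.20 and 9.86 ± 0.77. In the adenosine list Slc29a1, a nucleoside transporter, was lower beside Entpd1 (-1.20 ± 0.30), and 7 of 9 genes were not called. Of 12 tested ligands and partners, Cd86 was called lower (-3.88 ± 0.82). Several of these calls rested on single libraries. When 1 of the 12 libraries was left out, Slc29a1 lost its call in 11 fits, all but the fit without CD8 KE 1 (edgeR adjusted p up to 0.128). Il7r lost it in 9, all but those without NK KO 2, NK KE 1 or CD8 WT 2 (adjusted p up to 0.136). Cd86 lost it in 5 fits, without NK WT 1, NK WT 2, CD8 WT 1, CD8 KO 1 or CD8 KE 1 (adjusted p up to 0.0936). Ccr7 lost it without either NK KE library (adjusted p up to 0.0572), and Nr4a2 without NK WT 2 or NK KE 2 (adjusted p up to 0.0562).

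The second question of the design was how loss of TYK2 and loss of its kinase activity alone affect the tumour-infiltrating cells. No gene of the set was called in KO against WT, KE against WT or KO against KE within either cell type by edgeR after the filter on low counts. At an unadjusted p under 0.05, 4 of the 9 passed for KO and 5 for KE among NK libraries, against 1 for KO and 0 for KE among CD8 libraries. DESeq2 called 3 (KO) and 2 (KE) of the 9 after adjustment in NK cells, where it called 2.82% and 2.94% of all genes, and 0 of the 9 in CD8+ T cells, where it called 1.76% and 2.48%. With no filter on low counts, edgeR called 5 of the 9 in NK cells for each mutant, with 0.823% (KO) and 1.08% (KE) of all genes. By the filtered edgeR fit, 0.0% of tested genes were called in NK cells for either mutant, and 0.0527% (KO) and 0.0828% (KE) for CD8. At the unadjusted threshold 6.3% (KO) and 6.01% (KE) of all genes passed in NK cells, and 4.82% (KO) and 5.56% (KE) in CD8+ T cells. For KO against KE, the filtered edgeR fit called 0 of the 9 and 0.0% of all genes in either cell type, and DESeq2 called 0 of the 9, with 1.53% of all genes in NK cells and 1.18% in CD8+ T cells; at the unadjusted threshold 1 of the 9 passed in NK cells (3.8% of all genes) and 0 in CD8+ T cells (3.62%). The 2 WT libraries of a cell type served both KO and KE, so their values below are not independent of each other.

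**Figure D3:**
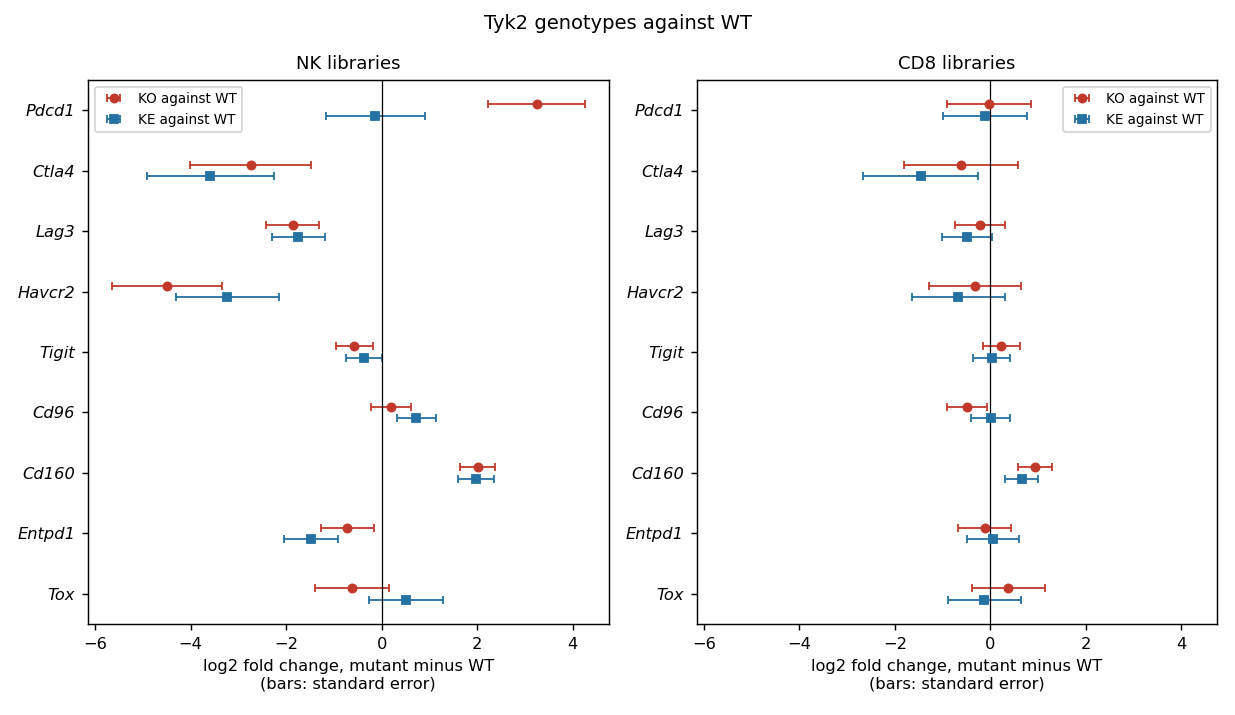
Log2 fold change of KO (red circles) and KE (blue squares) against WT in NK libraries (left) and CD8 libraries (right); bars are standard errors. In NK cells Cd160 lies near 2 in both mutants and Havcr2, Ctla4 and Lag3 lie below -1.7, while in CD8+ T cells most estimates are within 1 SE of 0.

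Cd160 had higher values in mutant than in WT libraries of both cell types. NK WT libraries held 63.8 and 47.9 CPM and the 4 mutant NK libraries 157 to 294 CPM. The log2 fold change in NK cells was 2.01 ± 0.37 for KO and 1.98 ± 0.37 for KE (edgeR unadjusted p = 2.38e-04 and 2.74e-04, adjusted p = 0.345 and 0.165). In CD8+ T cells the values were 0.93 ± 0.36 and 0.65 ± 0.36 (edgeR adjusted p = 0.887 and 0.792). All mutant libraries lay above the WT libraries of their cell type, an arrangement that 0.987% of tested genes showed in both cell types at once. Ncr1 and Cd3e also had higher values in all mutant than in all WT NK libraries. Ncr1, which encodes the NK receptor NKp46, was at 843 and 934 CPM (WT), 2049 and 1230.0 CPM (KO), and 1902 and 2298 CPM (KE) in NK libraries (log2 fold change 0.88 ± 0.24 for KO and 1.24 ± 0.24 for KE, edgeR adjusted p = 0.591 and 0.190). The 8 NK markers summed to 6964 and 8367 CPM in NK WT and to 8307 to 11323 CPM in the mutants, which overlap. The 8 CD8+ T cell markers also overlapped, with sums of 66.1 and 113 CPM in NK WT and 90.1 to 341 CPM in the mutants, and Cd8a, the marker of the CD8 sort, was at most 4.52 CPM, in NK WT 1. Cd3e, part of the T cell receptor complex, was at 8.96 and 7.17 CPM (WT), 9.93 and 51.7 CPM (KO), and 30.8 and 31.0 CPM (KE) in the same libraries (log2 fold change 1.93 ± 0.62 and 1.94 ± 0.62, edgeR adjusted p = 0.703 and 0.637). The part of these and of the macrophage transcripts in the Cd160 values was not tested. A difference of the Cd160 effect between the cell types was not called (difference 1.09 ± 0.50 for KO and 1.32 ± 0.50 for KE, edgeR adjusted p = 0.896 and 0.784). With 1 library left out, the difference ranged from 0.59 to 1.48 for KO and from 0.99 to 1.62 for KE.

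Averaged over both mutants and both cell types, a comparison added after these values were seen, Cd160 was the 1 gene of the set that was called (log2 fold change 1.39 ± 0.23, edgeR adjusted p = 0.0330), where 0.429% of all genes were called. Leaving out any library except NK KO 1 or NK KO 2 ended that call (edgeR adjusted p = 0.0551 to 0.197). DESeq2 called Cd160 in NK cells for KO and KE (adjusted p = 1.52e-04 and 1.68e-04).

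Lag3, Havcr2 and Ctla4 had lower values in the mutant NK libraries, each without overlap with WT. For the 4 mutant against the 2 WT NK libraries, 3 of the 9 genes were lower without overlap, and 10.8% of tested genes were. For Ctla4 this rested on the scaling, since NK WT 2 was at 48.0 and NK KO 2 at 47.4 CPM, and by plain library totals, an alternative chosen after seeing the data, they were at 47.8 and 50.5, which left Lag3 and Havcr2. The Lag3 log2 fold change was -1.86 ± 0.55 for KO and -1.74 ± 0.55 for KE (edgeR adjusted p = 0.614 and 0.637). That of Havcr2 was -4.50 ± 1.15 and -3.23 ± 1.08 (edgeR adjusted p = 0.569 and 0.679). Ctla4 gave -2.74 ± 1.27 and -3.58 ± 1.32 (edgeR adjusted p = 0.766 and 0.743). These sizes depended on single libraries. Without NK WT 1, Ctla4 gave -0.99 (KO) and -1.84 (KE) and Lag3 gave -1.05 and -0.92. Without NK KO 1 the Ctla4 value for KO was -1.77, and without NK KO 2 it was -8.01. Havcr2 for KE was -6.08 without NK KE 1. DESeq2 called Lag3 for KO and KE and Havcr2 for KO.

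The sum of the macrophage transcripts was also highest in both NK WT libraries. Of the 12 macrophage and monocyte markers, 11 were higher in both NK WT libraries than in any mutant NK library. Csf1r, a defining macrophage receptor, was at 292 and 302 CPM (WT), 0.156 and 0.222 CPM (KO), and 0.184 and 27.6 CPM (KE) in NK libraries. The exception was Lyz2, a lysozyme of myeloid cells, which was highest in NK KO 1, at 2505 and 2098 CPM (WT), 3376 and 19.4 CPM (KO), and 14.2 and 94.3 CPM (KE). Havcr2 and Entpd1 are also expressed by macrophages. In NK WT 1, NK WT 2 and NK KO 1, Havcr2 was at 26.4, 56.2 and 3.13 CPM, and in the other NK libraries at 0.517 to 8.29 CPM, so that NK KO 1 lay below NK KE 1. NK KO 1 also had the lowest NK values of Lag3 (10.4 CPM) and Ctla4 (0.626 CPM). Entpd1 was at 232, 128 and 170.2 CPM in the 3 libraries with these transcripts and at 49.0 to 66.5 CPM in the other NK libraries. The part of macrophage RNA in the Lag3, Havcr2, Ctla4 and Entpd1 values was not tested.

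**Figure D4:**
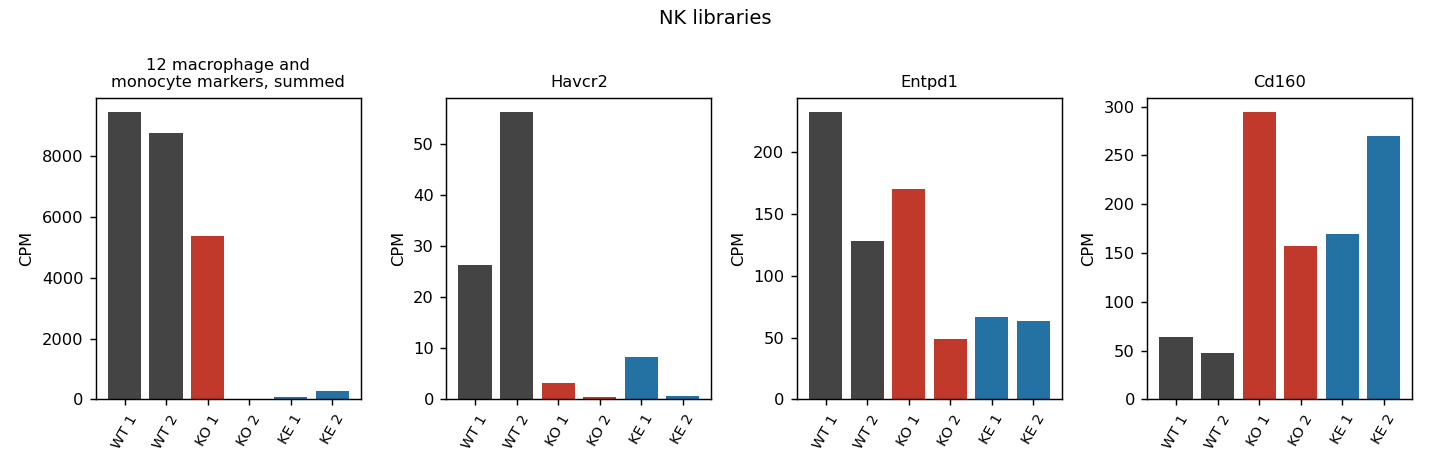
Summed CPM of 12 macrophage and monocyte markers and CPM of Havcr2, Entpd1 and Cd160 in the 6 NK libraries; each bar is 1 library on a linear axis from 0. The marker sum is high in WT 1, WT 2 and KO 1, Havcr2 is highest in the WT libraries, Entpd1 is highest in the same 3 libraries, and Cd160 is lowest in WT.

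Pdcd1 had a log2 fold change of 3.25 ± 1.01 in NK KO (edgeR adjusted p = 0.675), which rested on NK KO 1. Without that library the value was -0.28. The 8 CD8+ T cell markers summed to 90.1 CPM in NK KO 1 and to 66.1 to 341 CPM over all NK libraries, and their part in the Pdcd1 value was not tested.

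In CD8+ T cells Ctla4 was ordered from WT (1170.0 ± 7.48 CPM, SD) to KO (764 ± 18.0) and KE (426 ± 35.5), with no overlap between the 3 groups. It was not called in the fit, which shares 1 estimate of spread over NK and CD8 libraries (log2 fold change -0.61 ± 1.19 for KO and -1.46 ± 1.21 for KE, edgeR adjusted p = 1.00 and 0.922). In a fit of the CD8 libraries alone the adjusted p for KE was 0.170. Of all tested genes, 7.49% were lower in the 4 mutant than in the 2 WT CD8 libraries without overlap. Foxp3, the factor that defines regulatory T cells and that goes with high Ctla4, was at 15.3 and 45.9 CPM in CD8 WT and at 0 in the 4 mutant CD8 libraries, while Cd4 was at 0 in all CD8 libraries. The 6 CD4 and regulatory T cell markers summed to 217 and 443 CPM in CD8 WT and 313 to 468 CPM in the mutants, and their part in the Ctla4 values was not tested.

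For KE against WT in CD8+ T cells, 4 of the 9 genes, Pdcd1, Ctla4, Lag3 and Havcr2, had lower values without overlap, and 16.2% of tested genes did. By plain library totals it was 2 of the 9, Ctla4 and Havcr2. Pdcd1 was at 1442 and 1467 CPM in WT and 1389.7 and 1289 CPM in KE, Lag3 at 621 and 795 against 415 and 594 CPM, and Havcr2 at 586 and 537 against 229 and 477 CPM. None of the 4 was called. The log2 fold change of Pdcd1 was -0.12 ± 0.88, with a spread shared with the NK libraries, and -0.13 ± 0.22 in a fit of the CD8 libraries alone (edgeR adjusted p = 1.00 and 1.00). Tox in CD8 WT was split between 63.0 and 366 CPM, and Tigit, Cd96 and Entpd1 overlapped between WT and mutant CD8 libraries taken as a whole.

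Among ligands, Lgals9, which encodes the TIM-3 ligand galectin-9, was called lower in mutant CD8+ T cells. It was at 710.5 and 734 CPM (WT), 202 and 221 CPM (KO), and 336 and 253 CPM (KE) in CD8 libraries. The mean of KO and KE was below WT by -1.53 ± 0.23 on the log2 scale (edgeR adjusted p = 0.0339), where 0.203% of all genes were called, and leaving out any 1 CD8 library ended the call (adjusted p = 0.0573 to 0.289). NK libraries had 681 and 547 CPM (WT), 499 and 322 CPM (KO), and 485 and 321 CPM (KE). Cd274, which encodes PD-L1 and was picked after its values were seen, was at 134 and 133 CPM (WT), 46.1 and 46.8 CPM (KO), and 20.5 and 51.3 CPM (KE) in CD8 libraries and was not called (log2 fold change -1.71 ± 0.44, edgeR adjusted p = 0.331).

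**Figure D5:**
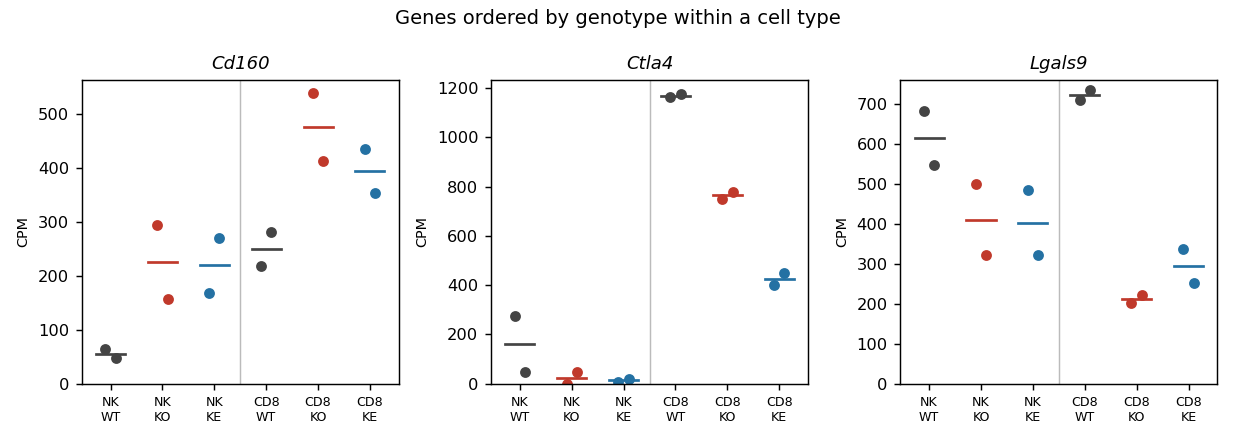
CPM of Cd160, Ctla4 and Lgals9 in each library on linear axes from 0; points are libraries and lines are group means. Cd160 has higher values in the mutants of both cell types, Ctla4 is ordered WT, KO, KE in CD8, and Lgals9 is at 710 and 734 CPM in CD8 WT and 202 to 336 CPM in the mutants.

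Promoter sequences of Cd160, Ctla4, Havcr2 and Lgals9, which had no overlap between WT and mutant libraries in NK or CD8+ T cells, are shown with matches to 3 short motifs. They are 300 bases from RefSeq on GRCm38.p6, from 250 before to 50 after the start. Motifs were searched on both strands as AANNGAAA (the core bound by interferon regulatory factors), TTCNNNGAA (the STAT element) and TGANTCA (the AP-1 element), and capitals mark matches. Of 32851 promoters, 23.9% held the first, 8.3% the second and 7.81% the third. Promoters of 7 of the 9 genes were found, all but those of Lag3 and Tox.
Cd160 promoter (chr3:96829302-96829601, minus strand): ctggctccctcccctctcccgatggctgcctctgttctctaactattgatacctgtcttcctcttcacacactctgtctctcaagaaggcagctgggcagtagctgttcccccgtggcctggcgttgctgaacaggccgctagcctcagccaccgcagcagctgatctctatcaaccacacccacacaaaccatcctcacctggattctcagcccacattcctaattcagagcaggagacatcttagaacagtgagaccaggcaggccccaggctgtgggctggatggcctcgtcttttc
Cd160 promoter (chr3:96814472-96814771, minus strand): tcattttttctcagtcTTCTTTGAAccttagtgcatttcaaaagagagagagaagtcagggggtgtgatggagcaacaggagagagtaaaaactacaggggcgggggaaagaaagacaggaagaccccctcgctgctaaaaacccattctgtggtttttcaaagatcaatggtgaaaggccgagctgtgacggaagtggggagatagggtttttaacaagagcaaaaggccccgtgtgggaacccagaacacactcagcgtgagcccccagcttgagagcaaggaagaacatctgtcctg
Ctla4 promoter (chr1:60908775-60909074, plus strand): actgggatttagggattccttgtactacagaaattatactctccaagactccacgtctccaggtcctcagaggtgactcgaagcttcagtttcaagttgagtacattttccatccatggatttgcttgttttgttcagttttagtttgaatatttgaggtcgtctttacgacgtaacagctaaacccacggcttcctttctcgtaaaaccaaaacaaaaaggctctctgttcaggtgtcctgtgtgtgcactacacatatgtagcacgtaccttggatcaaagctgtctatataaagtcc
Havcr2 promoter (chr11:46454681-46454980, plus strand): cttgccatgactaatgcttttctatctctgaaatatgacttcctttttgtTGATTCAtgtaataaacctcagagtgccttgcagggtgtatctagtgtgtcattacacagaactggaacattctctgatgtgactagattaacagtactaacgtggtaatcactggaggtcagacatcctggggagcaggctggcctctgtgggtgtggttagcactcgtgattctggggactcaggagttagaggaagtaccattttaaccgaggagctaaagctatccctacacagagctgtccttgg
Lgals9 promoter (chr11:78984875-78985174, minus strand): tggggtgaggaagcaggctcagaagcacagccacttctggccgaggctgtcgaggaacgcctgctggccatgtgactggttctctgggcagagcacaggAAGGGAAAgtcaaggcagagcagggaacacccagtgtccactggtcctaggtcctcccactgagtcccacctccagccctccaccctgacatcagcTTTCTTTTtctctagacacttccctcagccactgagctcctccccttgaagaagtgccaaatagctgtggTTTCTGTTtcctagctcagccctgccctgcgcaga
The first Cd160 start held none of the 3 motifs and the second held 1 STAT element, Havcr2 held 1 AP-1 element, Lgals9 held 3 interferon regulatory factor cores, and Ctla4 held none of the 3. Of the promoters not shown, those of Cd96, Pdcd1, Cd274 and the second Entpd1 start also matched the interferon regulatory factor core. Cd96 matched the STAT element as well, and Tigit and the first Entpd1 start held none of the 3. A match describes these letters and shows no bound site.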

How the data were processed

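RNA-seq was measured in 12 libraries of sorted tumour NK and CD8+ T cells. The authors deposited raw counts per Ensembl gene: single-end reads were trimmed with Trimmomatic and aligned to GRCm38 with STAR, and uniquely aligned reads in exons were counted. Reads shared between loci were thus dropped, and whether counting used strand was not given in the sources used here. Totals were 10378761 to 14732882 counts per library, and 3 counts correspond to 0.218 to 0.276 CPM. This floor covers counting error only, while the SE and SD values also include the spread between libraries.

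Counts were tested with edgeR 4.0.16 (R 4.3.3): TMM scaling, a mean of at least 10 normalized counts, robust quasi-likelihood fit with 1 mean per group over all 12 libraries, Benjamini-Hochberg adjustment, calls at adjusted p under 0.05 and a log2 fold change of at least 1 (differences between cell types by adjusted p alone). The SE was taken as the size of the log2 fold change over the root of its F statistic. DESeq2 1.42.0, other scalings, filters, subsets and a replicate block were alternatives. The test was checked on simulated data. In NK against CD8 within WT it found 0% of 2-fold, 4.04% of 4-fold and 20.9% of 16-fold changes. In NK against CD8 averaged over genotypes it found 3.11%, 25.8% and 43.5%. For KO against WT in NK cells no changed genes were simulated, so recovery of genotype changes was not measured. Members and lists were chosen with earlier results of these data known. Among the genes of these lists, 1 was left out and is not reported here. Named genes were all 9 members, at most 4 called genes per list by adjusted p, the 2 nearest genes per member, Tyk2, sort markers and defining markers of other cell types as checks. Cd274, Ncr1 and Lyz2 were named after their values were seen.

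Replicate numbers were checked for pairing: deviations of same-numbered libraries correlated between -0.025 and 0.0378, so they were not treated as pairs.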

Additional observations from a re-analysis of the deposited data

How the results depend on the processing

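Over the alternatives, NK against CD8 averaged over genotypes kept 6 to 8 of the 9 genes called, and also 6 to 8 when 1 library was left out. This comparison uses all 12 libraries, so restricting the fit to the groups compared changes nothing there. Within WT, 7 genes were called with no filter on low counts and 6 with DESeq2, and 0 to 1 when 1 library was left out. Within KO, 7 were called with no filter, 7 with DESeq2, 0 in a fit of only the KO libraries, and 1 to 3 when 1 library was left out. Within KE, 6 were called with no filter, 5 with DESeq2, and 0 to 2 when 1 library was left out. Both also called more of all genes in these 3 comparisons, 2.1% to 2.27% with no filter and 6.02% to 6.2% with DESeq2, where the reported fit called 0.7% to 0.904%.

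Against WT in NK cells, KO gave 5 genes with no filter, 3 with DESeq2 and 0 to 1 when 1 library was left out, KE gave 5 with no filter and 2 with DESeq2, and the mean of both gave 6 with no filter, 3 with DESeq2 and 0 to 1 when 1 library was left out. KO against KE in NK cells gave 1 with no filter and 0 to 1 when 1 library was left out. In CD8+ T cells, KE and the mean of both gave 1 each with no filter. The differences between cell types gave 3 for KO and 2 for KE with no filter. In NK cells the fit with no filter called 0.823% (KO), 1.08% (KE), 1.58% (mean of both) and 0.405% (KO against KE) of all genes. DESeq2 called 2.82% (KO), 2.94% (KE) and 3.35% (mean of both) there. In CD8+ T cells the fit with no filter called 0.78% (KE) and 0.882% (mean of both). For the differences between cell types it called 0.553% (KO) and 0.818% (KE). In the comparison over both cell types it called 1.7% and DESeq2 3.41%. Without the filter, 23707 genes were tested and adjusted p-values were far smaller; the cause was not tested. The comparison over both cell types gave 4 with no filter, 2 with DESeq2 and 0 to 2 when 1 library was left out. The log2 fold change of Pdcd1 in NK KO turned from 3.25 to -0.28 without NK KO 1 and ranged up to 4.17.

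The labels repeat replicate numbers over groups, but same-numbered libraries did not deviate together. With the replicate number as a block, 7 of 9 genes were called in NK against CD8 averaged over genotypes, and 0 in the comparison over both cell types, where Cd160 had an adjusted p of 0.0725 (edgeR). Over all genes the block moved the calls from 594 to 482 and from 57 to 31.

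Other tools changed the number of all genes called by more than 1.5 times. DESeq2 called 1593 genes and the unfiltered fit 1231 in NK against CD8 averaged over genotypes, where the reported fit called 594, and in KO against WT in NK cells they called 374 and 195, where it called 0. With 2 libraries a group and a biological coefficient of variation of 109%, an absence of calls says little about stability.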
